A study of Mus musculus with 69 samples.

Results

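The renin-angiotensin system genes Ren1, Agt, Ace, Agtr1a, Agtr1b, Enpep, Mme and Atp6ap2 were followed in whole kidneys of lupus-prone mice by RNA sequencing. The set was taken by symbol from the gene counts, and all 8 were among the 24523 symbols with counts. All mice were female NZB/W F1, a cross that develops a spontaneous immune-complex nephritis with age, and each library came from the perfused kidney of 1 mouse. The 30 young mice were 12 weeks old and had not been treated. The 27 nephritic mice were 30 to 45 weeks old and were taken 2 to 3 weeks after the onset of proteinuria. The 8 mice in remission had been nephritic and received cyclophosphamide, CTLA4Ig and anti-CD40L at 36 to 50 weeks of age. Their kidneys were taken 8 weeks after treatment. Young and nephritic kidneys were collected at ZT0, 4, 8, 12, 16 and 20 (zeitgeber time, hours after lights on; 7, 4, 4, 7, 4 and 4 young mice and 7, 4, 4, 6, 3 and 3 nephritic mice), and remission kidneys at ZT0 and ZT12 (4 mice each). Nephritic mice were older than young mice, so the effects of age and disease cannot be told apart.

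In the classical cascade, renin made by juxtaglomerular cells of the kidney cleaves angiotensinogen (Agt) to angiotensin I, and angiotensin-converting enzyme (Ace) turns this into angiotensin II. Angiotensin II raises blood pressure and sodium retention mainly through the type 1 receptor, which is encoded by a pair of genes in mice, Agtr1a and Agtr1b. Aminopeptidase A (Enpep) and neprilysin (Mme) degrade or convert angiotensin peptides at the brush border of the proximal tubule, and Atp6ap2 encodes the (pro)renin receptor, which is also an accessory subunit of the vacuolar proton pump.

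RefSeq (GRCm38.p6) gave 10 promoter windows for 7 of the members. The letters TATAAA, searched on either strand in the 60 bases before the start, were found in 5 windows of 5 members, against 3.92% of 32851 mouse promoters with windows of the same length. These 5 are shown because they are the members with these letters in that stretch, given in capitals, 5′ to 3′ on the strand of the gene. Whether they act as a core promoter motif was not tested. In Ace and Enpep the motif lies on the opposite strand and reads TTTATA. The positions are chr1:133350614-133350673 (+) for Ren1, chr8:124569707-124569766 (-) for Agt, chr11:105967888-105967947 (+) for Ace, chr3:20367178-20367237 (-) for Agtr1b and chr3:129332750-129332809 (-) for Enpep.
Ren1: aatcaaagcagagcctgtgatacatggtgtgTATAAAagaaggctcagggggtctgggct
Agt: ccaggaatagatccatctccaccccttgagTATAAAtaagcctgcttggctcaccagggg
Ace: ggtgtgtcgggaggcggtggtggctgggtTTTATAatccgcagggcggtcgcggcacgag
Agtr1b: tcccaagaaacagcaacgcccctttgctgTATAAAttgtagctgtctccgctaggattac
Enpep: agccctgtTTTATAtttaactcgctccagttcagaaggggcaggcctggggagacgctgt
The first printed letter of the motif lies 29 bases before the start in Ren1, 30 in Agt, 31 in Ace, 31 in Agtr1b and 52 in Enpep. The E-box CACGTG, the letters bound by the clock factors BMAL1 and CLOCK, was in 0 of the 10 member windows of 300 bases (250 before to 50 after the start), and in 7.15% of all promoters.

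Counts assigned to genes summed to 25257530 to 35744843 per young library, 26596500 to 48075977 per nephritic library and 13311278 to 21849912 per remission library. The libraries were sequenced in batches. Set 1 held 6 young and 5 nephritic mice of ZT0 and ZT12, and Set 2 held the other young and nephritic mice. The remission mice and 4 repeat libraries were treated here as a run of their own, a grouping that was inferred. Proximal tubule genes, which define the kidney cortex, were high in all groups. In nephritic mice 10 of 10 were lower than in young ones, and their summed level was 14200 to 22821 CPM (counts per 1000000 counts of the library) in young, 2658 to 17308 in nephritic and 10008 to 16682 in remission mice. Immune cell genes were higher in 8 of 8, at 68.8 to 139 CPM in young, 111 to 802 in nephritic and 140 to 410 in remission mice. Some kidneys also carried transcripts of neighbouring organs. Cyp11b1 of the adrenal cortex reached 1 CPM in 11 libraries (8 young, 2 nephritic, 1 remission), and Alb of the liver reached 1000 CPM in 7 (5 young, 2 nephritic). Remission replicate 8, labelled ZT12, had 27 CPM of the clock gene Arntl, against 3.19 to 4.89 in the other 3 remission mice of ZT12 and 23 to 28.8 in the 4 of ZT0, so its clock genes went against its time label.

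Ren1, on chromosome 1 from 133350674 to 133360320, was listed at 0 counts in 63 of the 65 original libraries, with at most 2 counts in a library. The near-identical Ren2 was listed at 0 in 63 of 65 as well. The study's alignment used reads placed at 1 position only, and reads shared by such copies have no single position. Whether this set the counts was not tested, and Ren1 was given no fold change and no test. The other 7 members had counts in the libraries of every group.

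Per kilobase of exon, Atp6ap2 had the highest level of the members in young kidneys, 55 ± 5.86 CPM per kb (SD, n = 30). It was followed by Ace (45.1 ± 11.6), Enpep (41.7 ± 7.71), Agt (26.1 ± 11.6), Mme (24.6 ± 8.88), Agtr1a (14.5 ± 1.57) and Agtr1b (0.0681 on average). Within 1 SD, Atp6ap2 overlapped Ace and Enpep, these overlapped Agt, Agt overlapped Mme, and Mme just reached Agtr1a, so only Agtr1b was apart from its neighbour in this order. Without the 5 young libraries with liver signal Agt was at 22.1 ± 2.82 and Mme at 25.5 ± 9.42 CPM per kb (SD, n = 25), in the reverse order. In nephritic kidneys Atp6ap2 was again first at 48.6 CPM per kb, followed by Enpep (31.3 ± 8.43), Agt (28.7 ± 8.75), Ace (28.2 ± 12.3), Mme (16.3) and Agtr1a (10.9). Enpep, Agt and Ace lay within 1 SD of each other there. In remission Ace came first at 68.3 ± 8.64 CPM per kb (SD, n = 8), before Atp6ap2 (47.8 ± 3.43), Agt (35), Enpep (28.2), Mme (25.2) and Agtr1a (12.2).

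**Figure D1:**
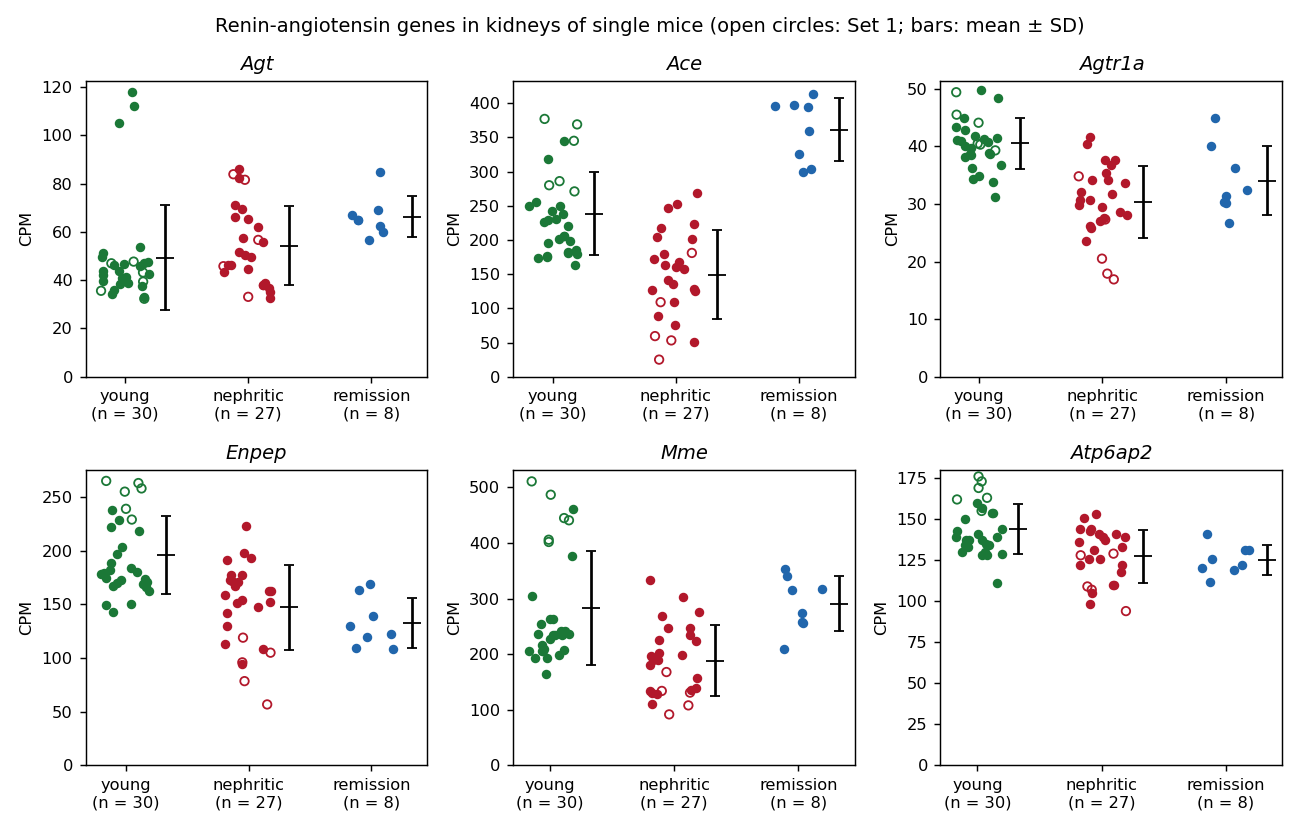
CPM of 6 members in each mouse, by group, on linear axes from 0 (points are mice, open circles are Set 1, bars are mean ± SD). The 8 remission mice lie at 300 to 413 CPM of Ace, above all nephritic mice of ZT0 and ZT12, and 3 young mice stand apart at 105 to 118 CPM of Agt.

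The first comparison asked how the system's transcripts differed between nephritic and young kidneys over the whole day. Of the 7 members tested, 5 (Ace, Mme, Agtr1a, Enpep and Atp6ap2) were lower in nephritic mice and 0 were higher. Of all 17521 genes tested, 33.9% were lower and 28.1% higher. The median log2 change was -0.46 over the members and -0.03 over all genes. In bulk tissue, fewer cells of a type and less RNA per cell cannot be told apart.

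Ace, on chromosome 11 from 105967948 to 105989964, had 163, 227 and 377 CPM in the lowest, median and highest young mouse, and 25, 158 and 269 CPM in nephritic mice. The groups overlapped, but 15 of the 27 nephritic mice lay below all young mice. The log2 difference was -0.71 (SE 0.15, adjusted p = 8.7e-05, edgeR), or 0.613 of the young level.

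Agtr1a, the main renal angiotensin II receptor, lies on chromosome 13 from 30336356 to 30382867. It had 31.2, 40.4 and 49.7 CPM in the lowest, median and highest young mouse, and 16.9, 30.6 and 41.7 CPM in nephritic mice. Its young spread was narrow, and 15 of 27 nephritic mice fell below it. The log2 difference was -0.46 (SE 0.05, adjusted p = 1.9e-10, edgeR), with the lowest p of the members.

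Both brush border peptidases were lower. Mme (chromosome 3, 63295211 to 63383713) had 164, 237 and 511 CPM in the lowest, median and highest young mouse, and 91.8, 190 and 333 CPM in nephritic mice. The groups overlapped, with 11 of 27 nephritic mice below all young mice, and the log2 difference was -0.55 (SE 0.12, adjusted p = 1.1e-04, edgeR). Enpep (chromosome 3, 129269177 to 129332749) had 143, 181 and 265 CPM in young mice and 56.8, 154 and 223 CPM in nephritic mice. For Enpep 10 of 27 nephritic mice lay below all young mice, and the log2 difference was -0.46 (SE 0.09, adjusted p = 1.7e-05, edgeR).

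Atp6ap2, on chromosome X from 12587759 to 12617051, had the smallest of the called differences. It had 111, 139 and 176 CPM in the lowest, median and highest young mouse, and 94, 129 and 153 CPM in nephritic mice. Most nephritic mice lay within the young range, 7 of 27 below it, and the log2 difference was -0.19 (SE 0.04, adjusted p = 1.0e-04, edgeR).

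These 5 differences were each called in all 57 fits that left out 1 mouse, and also without the libraries that carried adrenal or liver transcripts. Within Set 2 alone 4 of the 5 kept their call: Ace at a log2 difference of -0.43 (adjusted p = 0.00321), Agtr1a at -0.32 (4.0e-08), Mme at -0.25 (0.0328) and Enpep at -0.20 (0.00366). Atp6ap2 was at -0.08 there (adjusted p = 0.0603, edgeR). Within Set 1, 6 young against 5 nephritic mice, the differences were -1.95 for Ace, -1.84 for Mme, -1.51 for Enpep, -0.94 for Agtr1a and -0.55 for Atp6ap2, all called. The point estimates of Set 1 were therefore the larger ones in each of the 5 genes, and the difference between the sets was not tested. The shares of all genes called within each set are not given here, so the counts of members cannot be set against them. In Set 1 Mme was at 402 to 511 CPM in the 6 young mice and at 91.8 to 168 CPM in the 5 nephritic mice, without overlap. Marker genes of several cell types moved with these genes, and their part in the result was not tested. Besides the proximal tubule markers given above, 4 of 6 endothelial markers were lower in nephritic mice, with sums of 225 to 422 CPM in young and 133 to 378 CPM in nephritic mice. Of 8 smooth muscle and mesangial markers 6 were higher and 1 lower (median log2 difference 0.61), with sums of 114 to 228 CPM in young and 128 to 545 CPM in nephritic mice.

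Agt, on chromosome 8 from 124556587 to 124569706, had 32.3, 43.5 and 118 CPM in the lowest, median and highest young mouse, and 32.7, 50.3 and 86.1 CPM in nephritic mice. The highest values of all were those of 3 young mice (replicates 11, 17 and 19), at 118, 105 and 112 CPM, while the other 27 young mice lay between 32.3 and 53.7. The log2 difference between nephritic and young mice was 0.17 (SE 0.12, adjusted p = 0.226, edgeR). Hepatocytes are the main source of circulating angiotensinogen, and the same 3 mice had 8802 to 10517 CPM of the liver transcript Alb. A list of 5 liver genes chosen after seeing these values (Alb, Apoa2, Ahsg, Serpina3k and Mup3) summed to 1726 to 12978 CPM in the 5 young libraries with liver signal and to 22.4 to 817 CPM in the other young libraries. It summed to 1335 to 3300 CPM in the 2 nephritic libraries with signal, to 2.82 to 811 CPM in the other nephritic libraries and to 6.41 to 16.8 CPM in remission, where Serpina3k was at 0 in all mice. In the 2 nephritic libraries with signal Alb alone was at 1229 and 3072 CPM. Of these, replicate 8 had 22.1 CPM of Apoa2, 50.4 of Ahsg and 0.882 of Mup3. The other nephritic libraries reached 46.3, 62.1 and 8.07 CPM of these genes. Replicate 6 lay within that range for Mup3 only (7.01 CPM). Without the 7 libraries with liver signal, Agt was higher in nephritic mice by 0.29 on the log2 scale (SE 0.09, adjusted p = 0.00513, edgeR). The 2 nephritic mice left out there, replicates 6 and 8 of ZT0, also had high scores of the injury genes described below. They were at 7.446 and 7.932, against a nephritic median of 5.64, so every nephritic fit without liver signal also left out these scores. Leaving out young replicate 11 alone also brought a call (adjusted p = 0.0451).

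**Figure D2:**
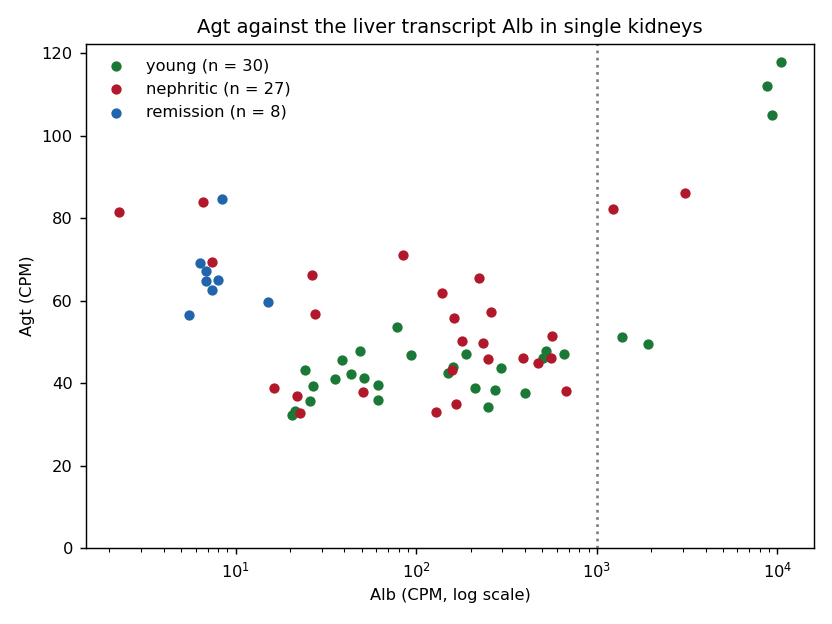
Agt (CPM, linear axis from 0) against the liver transcript Alb (CPM, log axis) in each original library, with the dotted line at 1000 CPM of Alb. The 3 young kidneys above 100 CPM of Agt lie at the right end, with 8802 to 10517 CPM of Alb.

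Agtr1b, the second type 1 receptor gene (chromosome 3, 20314473 to 20367177), was close to the limit of detection. It had 250 counts in the 65 original libraries together, 157 of them in the 11 libraries that carried Cyp11b1 of the adrenal cortex, a tissue known to express it, and 93 in the other 54. The highest was nephritic replicate 6, which held both adrenal and liver signal, with 66 counts or 1.69 CPM. Its median was 0.0608 CPM in young and 0.0313 CPM in nephritic mice, and the log2 difference of -0.39 (SE 0.50, adjusted p = 0.503, edgeR) did not pass the test. Without nephritic replicate 6 the adjusted p was 0.0238. The 10 other libraries with Cyp11b1 held 91 of the counts.

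**Figure D3:**
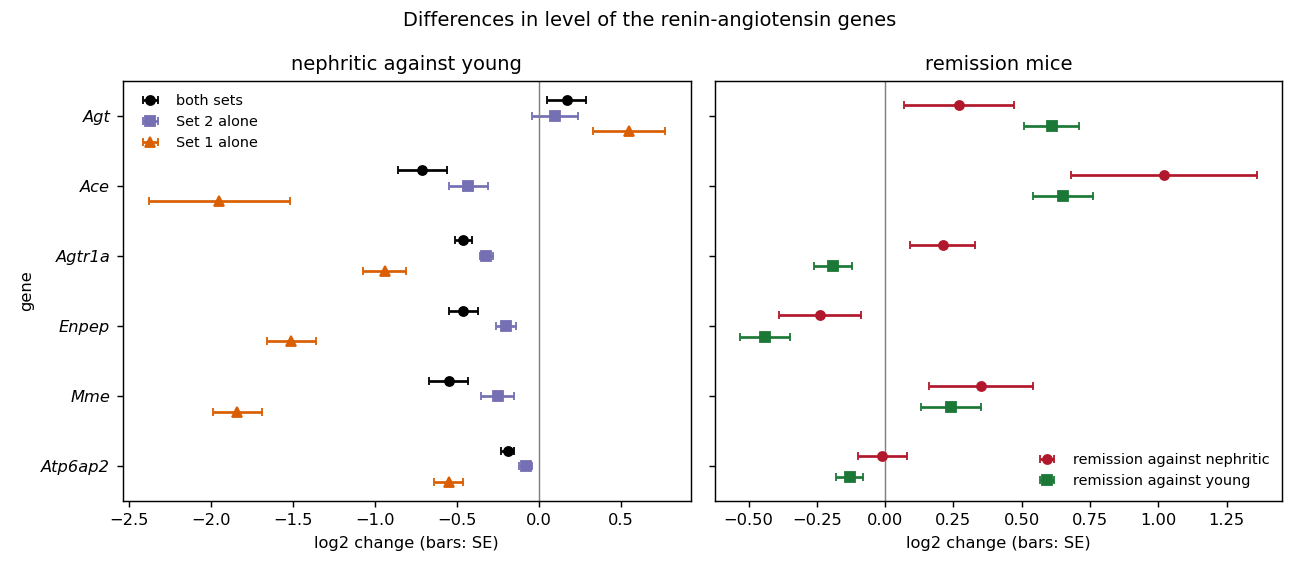
Log2 differences of 6 members (points) with their SE (bars), for nephritic against young mice in both sets, in Set 2 and in Set 1 (left), and for remission mice against nephritic and young mice (right). The 5 lower members lie left of 0 in all 3 estimates of the left panel, and Ace lies right of 0 in both comparisons of the right panel.

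The same contrast was then made at each time point, in the fit with group by time terms. At ZT0 the 5 lower members were again called (19.4% of all genes were lower there), with log2 differences of -0.92 for Ace, -0.75 for Enpep, -0.70 for Mme, -0.58 for Agtr1a and -0.30 for Atp6ap2. At ZT12 the same 5 genes were called (24.2% of all genes lower), at -0.99 for Ace, -0.85 for Mme, -0.66 for Enpep, -0.65 for Agtr1a and -0.27 for Atp6ap2. Agt was higher at ZT12 by 0.57 (SE 0.24, adjusted p = 0.0414, edgeR; 25.8% of all genes higher), a call lost in 8 of the 13 fits that left out 1 mouse. At ZT16 Agtr1a (-0.53, adjusted p = 0.00679) and Mme (-0.94, adjusted p = 0.042) were lower, against 7.66% of all genes, and the call of Mme was lost whichever of the 7 mice was left out. Single mice also decided other calls at these times. At ZT12 Ace and Atp6ap2 lost theirs without nephritic replicate 4 or 5 (adjusted p up to 0.0557 and 0.0768, edgeR), at ZT0 Mme without young replicate 25 or nephritic replicate 1 or 3 (up to 0.0612), and at ZT16 Agtr1a without nephritic replicate 24 (0.0886). Conversely, Agtr1b was called at ZT12 without young replicate 13 or nephritic replicate 5 (down to 0.0233), and Agt at ZT16 without nephritic replicate 23 (0.0471).

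At ZT4, ZT8 and ZT20 no member was called by edgeR, where 30.3%, 3.66% and 5.48% of all genes differed in either direction. At an unadjusted p under 0.05 there were 0 members at ZT4, 0 at ZT8 and 1 at ZT20, Agtr1a. The levels of the angiotensin-forming and angiotensin-degrading enzymes were close at ZT4. Ace was at 173 to 196 CPM in the 4 young and 161 to 205 CPM in the 4 nephritic mice of ZT4, with a log2 difference of -0.07 (SE 0.38). Only ZT0 and ZT12 held mice of Set 1, and these time points had the most mice.

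Within Set 2 alone, a fit added after seeing these values, fewer members were called at ZT0 and ZT12. At ZT0 Agtr1a (-0.42, adjusted p = 0.00149) and Enpep (-0.37, adjusted p = 0.0303) kept their calls, while Ace was at -0.51 (0.147), Atp6ap2 at -0.19 (0.075) and Mme at -0.02 (0.945). At ZT12 Agtr1a alone was called (-0.36, adjusted p = 0.00525), and Ace (-0.27, 0.461), Mme (-0.18, 0.533), Enpep (-0.02, 0.924), Atp6ap2 (-0.02, 0.903) and Agt (0.14, 0.757) were not. These members differed less within Set 2 than over both sets. Over both times Ace was at 321 ± 47.8 CPM in young and 85.6 ± 61.5 CPM in nephritic mice of Set 1 (SD, n = 6 and 5), and at 234 ± 53.7 and 182 ± 82.1 CPM in those of Set 2 (n = 8 each). At ZT16, which held Set 2 mice only, this fit called Ace (-1.10, adjusted p = 0.00635), Mme (-0.91, 0.00378), Agtr1a (-0.50, 4.9e-04) and Enpep (-0.43, 0.0243), and at ZT20 it called Agtr1a (-0.34, 0.0339). The share of all genes called by this fit at ZT16 and ZT20 is not given here, so these calls cannot be set against it.

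Whether the transcripts varied over the day was tested within each group. In young mice 5 of 7 members varied with time (39.8% of all genes did), namely Mme (adjusted p = 0.00196), Ace (0.00787), Agt (0.0197), Agtr1b (0.0324) and Agtr1a (0.0467). Enpep (0.361) and Atp6ap2 (0.167) did not pass. In nephritic mice 1 of 7 passed (21.6% of all genes), Agtr1a at an adjusted p of 0.0195.

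Ace had its lowest mean in young mice at ZT4, 182 ± 10.3 CPM (SD, n = 4), and its highest at ZT12, 302 ± 72.9 CPM (n = 7). The mice of ZT4 held 173, 175, 183 and 196 CPM. At ZT12 the 3 mice of Set 1 held 345, 369 and 377 CPM and the 4 of Set 2 held 206, 220, 256 and 345 CPM, so the ZT12 values were all above those of ZT4 but also differed by set. With the set as a covariate, a 24 h cosine gave an amplitude of 0.23 (log2 CPM, SE 0.06) with a peak at ZT15.9. Within Set 2 alone its mean was 256 ± 62.3 CPM at ZT12 and 245 ± 55.7 CPM at ZT20 (n = 4 each), and Ace missed the threshold (adjusted p = 0.0542).

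Mme was also lowest at ZT4 and, over both sets, highest at ZT12, from 195 ± 21.6 CPM at ZT4 (SD, n = 4) to 363 ± 121 CPM at ZT12 (n = 7). Its 4 values at ZT4 were 164, 199, 208 and 210 CPM, and at ZT12 the Set 2 mice held 228, 235, 264 and 376 CPM and the Set 1 mice 441, 487 and 511 CPM. All 7 values at ZT12 lay above those at ZT4, and the Set 1 mice were the highest. Within Set 2 alone the highest mean was that of ZT20, 317 ± 99.9 CPM against 276 ± 68.4 CPM at ZT12 (n = 4 each). The cosine amplitude was 0.27 (log2 CPM, SE 0.07) with a peak at ZT17.1, and Mme was the only member that kept its call within Set 2 alone (adjusted p = 0.00852, edgeR). Ace and Mme kept their calls in all 30 fits that left out 1 young mouse.

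Agtr1a peaked at another time of day, in young mice with a smaller amplitude. In young mice its mean was 44.1 ± 3.12 CPM at ZT0 (SD, n = 7) and 37.6 ± 4.49 CPM at ZT16 (n = 4), and the cosine amplitude was 0.13 (log2 CPM, SE 0.03) with a peak at ZT1.6. In nephritic mice the mean was 39.2 ± 2.26 CPM at ZT4 (n = 4) and 24.6 ± 5.88 CPM at ZT12 (n = 6). The 4 nephritic mice of ZT4 held 36.8, 37.7, 40.4 and 41.7 CPM and those of ZT12 held 16.9, 17.9, 25.8, 27, 29.8 and 30.6 CPM, without overlap. The values of 16.9 and 17.9 CPM were those of the Set 1 mice. Within Set 2 alone the nephritic mean was 28.3 ± 2.25 CPM at ZT12 (n = 4) and lowest at ZT16, 26.1 ± 2.51 CPM (n = 3). The amplitude in nephritic mice was 0.27 (SE 0.05) with a peak at ZT3.1. Agtr1a was called in nephritic mice in all 27 fits that left out 1 mouse, whereas its call in young mice was lost in 21 of 30.

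The time course of Agt in young mice rested on the kidneys with liver transcripts. At ZT16 the 4 young mice held 46.9, 51.1, 105 and 112 CPM, at ZT8 they held 34.2, 42.4, 44 and 118 CPM, and at the other 4 time points all young mice lay between 32.3 and 53.7 CPM. Its call was lost without young replicate 17 or 19 (adjusted p up to 0.0985, edgeR). Young replicates 17, 19 and 20, all of ZT16, carried liver signal, so fits of young mice without it hold little of that time point. Without the libraries with liver signal the adjusted p of Agt was 0.427, and the cosine fit did not call it with all mice (0.524). Without those libraries Ace (0.0475), Agtr1a (0.0266) and Mme (0.0123) stayed called in young mice, where 24.2% of all genes were then called. In nephritic mice, Agtr1a (0.00392), Enpep (0.00538), Mme (0.00555) and Atp6ap2 (0.0239) were then called, beside 42.8% of all genes, and leaving out nephritic replicate 6 alone sufficed for Enpep (0.0234) and Mme (0.0381). Of the adrenal markers 10 of 10 varied with time in young mice, and Agtr1b fell below the count filter without the libraries that carried them. The Agtr1b call was also lost without young replicate 5, 9, 10, 11 or 17 (adjusted p up to 0.0587), and in nephritic mice it was gained without replicate 5, 7, 8 or 9 (down to 0.0229).

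**Figure D4:**
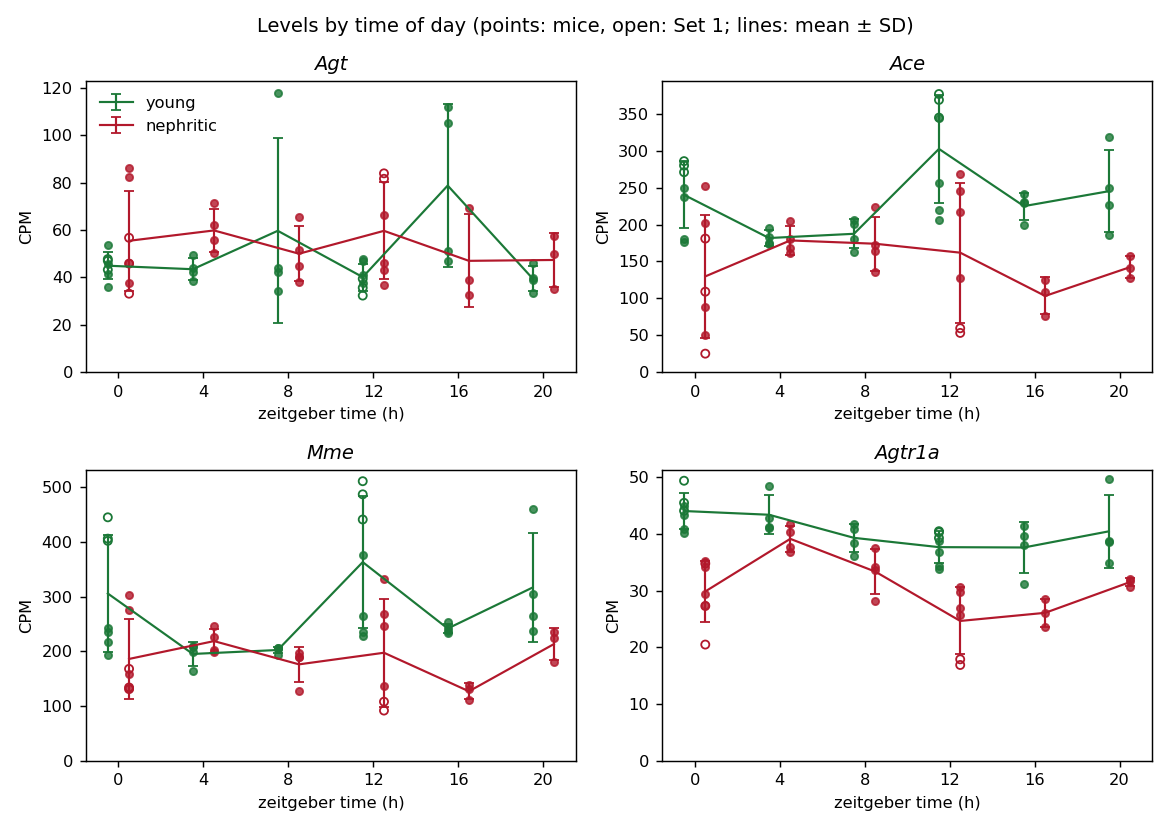
CPM of Agt, Ace, Mme and Agtr1a against zeitgeber time in hours (points are mice, open circles are Set 1, lines join means and bars are SD) in young and nephritic mice. Over both sets young Ace and Mme have their highest means at ZT12, where the Set 1 mice are among the highest, nephritic Agtr1a is highest at ZT4, and the high young Agt values are single mice at ZT8 and ZT16.

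A difference in time course between the groups was tested with interaction terms, and 0 of 7 members passed by edgeR (6.27% of all genes did) and 0 by limma. The lowest adjusted p values were 0.139 for Agtr1b, 0.146 for Agt and 0.184 for Agtr1a. At an unadjusted p under 0.05 there were 3, Agtr1b (0.027), Agt (0.0298) and Agtr1a (0.0475). A rhythm called in 1 group and not in the other was therefore not shown to differ between them.

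Remission mice were compared with the 13 nephritic and with the 14 young mice of ZT0 and ZT12. The 2 comparisons share the remission mice. These fits held a Set 1 term, so their log2 differences were in effect from the Set 2 mice. The CPM values of nephritic and young mice given beside them are of both sets. The remission libraries were treated as their own run, so run and remission cannot be told apart without the repeat libraries. Remission mice were also the only treated ones and were older than young mice. The effects of remission, treatment and age cannot be told apart here. Against nephritic mice 1 of 6 members tested was higher (14.6% of all genes) and 0 were lower (16.5%). Against young mice 2 of 6 were higher (26% of all genes) and 3 were lower (25.6%).

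Ace was higher in remission than in either group. The 8 remission mice held 300, 304, 326, 359, 395, 396, 398 and 413 CPM, against 25, 127 and 269 CPM in the lowest, median and highest of the 13 nephritic mice. The 2 groups did not overlap, and the log2 difference was 1.02 (SE 0.34, adjusted p = 0.0299, edgeR). The call rested on the libraries included, with an adjusted p of 0.0513 without remission replicate 8, 0.0785 without libraries with adrenal signal and 0.0907 without those with liver signal (log2 differences of 0.99, 0.81 and 0.69), and 0.00784 without Set 1 mice. Against young mice, at 176, 263 and 377 CPM, the log2 difference was 0.65 (SE 0.11, adjusted p = 4.7e-05), with 4 of the 8 remission mice above all young mice. With a run term estimated from 4 repeat libraries the difference from young mice was 0.35 (adjusted p = 0.639, edgeR), not called. Endothelial markers differed as well. Of the 6 markers 5 were higher in remission than in nephritic mice and 6 than in young mice, with summed levels of 379 to 501 CPM in remission, 133 to 378 in nephritic and 225 to 422 in young mice. Proximal tubule markers ran in both directions against nephritic mice, with log2 differences from -0.73 for Slc5a12 to 0.64 for Slc7a13. Of 10, 0 were called against nephritic mice (median log2 difference -0.05) and 7 were lower against young mice (median -0.59). The part of either cell type in the result was not tested.

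Agt was higher in remission than in young mice. The 8 remission mice held 56.6, 59.8, 62.5, 64.9, 65.1, 67.2, 69.1 and 84.8 CPM, against 32.3, 42.2 and 53.7 CPM in the lowest, median and highest of the 14 young mice. The groups did not overlap, and the log2 difference was 0.61 (SE 0.10, adjusted p = 2.0e-05, edgeR). With the run term it was 0.38 (adjusted p = 0.275, edgeR), not called. None of these 22 kidneys reached the liver threshold, and Alb was at 5.49 to 15.1 CPM in remission. Against nephritic mice the log2 difference of Agt was 0.27 (SE 0.20, adjusted p = 0.316), and 0.59 (adjusted p = 0.0121) without the 2 nephritic libraries with liver signal.

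Enpep was lower in remission than in young mice. It had 108, 126 and 169 CPM in the lowest, median and highest remission mouse and 150, 213 and 265 CPM in the 14 young mice, and 6 of 8 remission mice lay below all of these. Its log2 difference was -0.44 against young mice (SE 0.09, adjusted p = 2.3e-04, edgeR) and -0.24 against nephritic mice (SE 0.15, adjusted p = 0.241). The mean of Enpep was 133 CPM both in remission and in the 13 nephritic mice, and 159 ± 30.9 CPM in the nephritic mice of Set 2 (SD, n = 8). With the run term the difference from young mice was -0.52 (adjusted p = 0.143), not called. Of the 10 proximal tubule markers 7 were lower in remission than in young mice (median log2 difference -0.59), and their part in the result was not tested. Agtr1a was lower than in young mice by -0.19 on the log2 scale (SE 0.07, adjusted p = 0.0256) and Atp6ap2 by -0.13 (SE 0.05, adjusted p = 0.0301). The last 2 calls were lost in 3 and in 6 of the 8 fits that left out 1 remission mouse. Mme was at 209 to 354 CPM in remission, within the young range of 193 to 511, with a log2 difference of 0.24 (SE 0.11, adjusted p = 0.0727, and 0.0158 without remission replicate 4).

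The 4 repeat libraries, made from earlier mice and grouped here with the remission mice, give the size of the shift between original and repeat. In 3 of them the log2 ratio of repeat to original was 0.08 to 0.18 for Agt, 0.08 to 0.23 for Ace, -0.19 to -0.14 for Enpep, -0.29 to -0.10 for Mme, -0.13 to -0.12 for Atp6ap2 and -0.03 to 0.02 for Agtr1a. The fourth, of nephritic replicate 21, stood apart, with ratios of 0.57 for Agt, 0.60 for Agtr1a, -0.60 for Mme, -0.36 for Enpep, -0.30 for Atp6ap2 and -0.27 for Ace. The shifts had the sign of the remission difference from young mice in all 4 repeats for Agt, Enpep and Atp6ap2, and in the first 3 for Ace, whose sign in the fourth was the opposite. With a run term estimated from all 4 repeats, the difference of Ace from nephritic mice was 1.29 (SE 0.42, adjusted p = 0.0245, edgeR), against 1.02 without it. With this term 0 of the 7 members tested passed against young mice. The 4 repeated mice entered these fits with both of their libraries, so the p-values there do not measure the spread between mice alone.

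Between ZT12 and ZT0 within remission, 0 of 6 members and 0 of 14451 genes passed by edgeR, with 1449 genes at an unadjusted p under 0.05. DESeq2 called 24 genes and limma 0, with 0 members in both. The widest member difference was -0.21 for Mme (ZT12 minus ZT0, log2, SE 0.14, adjusted p = 0.58), and without replicate 8 it was -0.22 (adjusted p = 0.486).

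Nephritic mice differ in severity, so the members were set against an injury score, the mean log2 CPM of the tubular and inflammatory injury genes Lcn2, Havcr1, Timp1 and Vcam1. It ran from 1.58 to 3.07 in young, from 2.61 to 7.93 in nephritic and from 3.44 to 5.33 in remission mice. Over the 27 nephritic mice and 7 relations, 5 members were related to the score, with two-sided permutation tests and Benjamini-Hochberg adjustment. The adjustment was over these 7 relations. The share of all genes related to the score was not computed, so the count of 5 cannot be set against it. Agt rose with it (Pearson r = 0.70, adjusted p = 2.4e-04; Spearman rho = 0.69, adjusted p = 8.0e-04), and Ace fell with it (r = -0.70, adjusted p = 2.1e-04; rho = -0.66, adjusted p = 8.0e-04). Without the 2 mice farthest from the median score r was 0.65 for Agt and -0.74 for Ace. Atp6ap2 (r = -0.58, rho = -0.58), Mme (r = -0.51, rho = -0.50) and Enpep (r = -0.44, rho = -0.43) also passed in permutation tests, with adjusted p values for r of 0.00436, 0.0134 and 0.0267. Agtr1a (r = -0.36, adjusted permutation p = 0.0771) and Agtr1b (r = 0.25, adjusted permutation p = 0.226) did not.

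Within the 22 nephritic mice of Set 2, r was 0.85 for Agt (adjusted permutation p = 7.0e-05) and -0.56 for Ace (adjusted permutation p = 0.0221), and the other 5 did not pass. For Ace the rank correlation there was -0.47 (adjusted permutation p = 0.101). Without the 2 nephritic kidneys with liver signal, r was 0.63 for Agt (adjusted permutation p = 0.00252) and -0.67 for Ace (adjusted permutation p = 5.6e-04). The 2 most strongly related members thus ran in opposite directions within the nephritic group. The 2 nephritic mice of ZT12 in Set 1 had 81.6 and 83.9 CPM of Agt and 53.1 and 59.4 CPM of Ace.

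**Figure D5:**
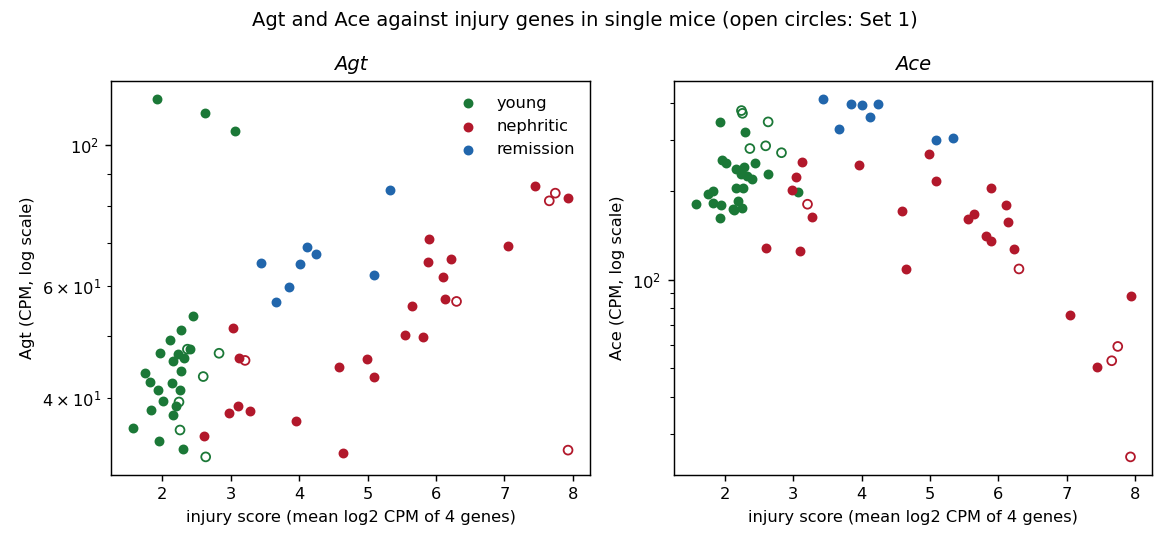
Agt and Ace (CPM, log axes) against the injury score (mean log2 CPM of 4 genes) in each mouse (colours are groups, open circles are Set 1). Over the 27 nephritic mice Agt rises (r = 0.70) and Ace falls (r = -0.70) with the score.

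Members also varied together, as a description across mice that share time points and sets. Ace and Mme had r = 0.93 over the 30 young and 0.80 over the 27 nephritic mice, and Enpep and Atp6ap2 had 0.86 and 0.88. Ace and Agtr1a had r = 0.00 in young and 0.65 in nephritic mice. Among 13852 genes with at least 1 CPM in young kidneys, those most like Ace over the 30 young mice were Ror2 (r = 0.94), Mpv17l (0.94) and the organic anion transporter Slco1a6 (0.93), with r of 0.69, 0.96 and 0.96 in nephritic mice. Slco1a6 was also the most like Mme (0.97 in young, 0.81 in nephritic mice), followed by Gpm6a (0.96, 0.85) and Med14 (0.96, 0.90). Agt was most like Sec14l2 (0.93, 0.63), Serpinf1 (0.93, 0.60) and Sdc1 (0.92, 0.65), and over the 25 young mice without liver signal these r were 0.43, 0.65 and 0.36. For Enpep the list began with Atp6v1a, a subunit of the vacuolar proton pump (0.91, 0.80), then Eps8 (0.90, 0.73) and Galnt1 (0.89, 0.79). Atp6ap2 was most like Dld (0.96, 0.89), Sec62 (0.95, 0.90) and Sacm1l (0.94, 0.87). For Agtr1a the values were lower, with Fads2 (0.76, 0.80), Vstm4 (0.75, 0.39) and Lgals8 (0.74, 0.54). Agtr1b was most like Cacna2d1 (0.87, 0.45), Trank1 (0.83, 0.52) and Dbh (0.82, 0.80), the last an enzyme of the adrenal medulla, and over the 22 young mice without adrenal signal these r were 0.43, 0.18 and 0.42.

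Of 18 further renin-angiotensin genes 16 could be tested, and relative to young mice 6 were lower and 0 higher in nephritis (33.9% and 28.1% of all genes), with a median log2 difference of -0.06. Anpep, the aminopeptidase that follows Enpep in the degradation of angiotensin II, differed by -0.75 (SE 0.10, adjusted p = 1.1e-08, edgeR). Prcp, another peptidase of angiotensin II, differed by -0.35 (SE 0.05, adjusted p = 2.9e-07). Agtr2, the type 2 receptor, was scarce, with a median of 0.206 CPM in young and 0.0668 CPM in nephritic mice, and differed by -1.40 (SE 0.39, adjusted p = 0.00184). Without the libraries with adrenal signal Agtr2 differed by -0.97 (SE 0.41, adjusted p = 0.0404, edgeR). The kallikrein Klk1 differed by -0.31 (SE 0.11, adjusted p = 0.0103). In remission 1 of 15 was higher than in nephritic mice (14.6% of all genes), the receptor-associated protein gene Agtrap (0.69, SE 0.08, adjusted p = 4.1e-06), named after its values were seen, and 3 were higher and 8 lower of 16 against young mice (26% and 25.6% of all genes).

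Of 15 genes of renin cells, the macula densa and their signals, 1 was higher and 4 were lower in nephritic mice (28.1% and 33.9% of all genes), with a median of 0.03. Ptger4, a prostaglandin E2 receptor through which renin release is stimulated, was higher by 1.24 (SE 0.11, adjusted p = 8.2e-15, edgeR). Akr1b7, a renin cell marker that the adrenal cortex also expresses, differed by -1.64 (SE 0.54, adjusted p = 0.00726), and by -0.46 (adjusted p = 3.4e-04) without the libraries with adrenal signal. Vdr, the vitamin D receptor, differed by -0.45 (SE 0.08, adjusted p = 1.8e-06), the calcium-sensing receptor Casr by -0.22 (SE 0.08, adjusted p = 0.0146) and Gnas by -0.14 (SE 0.03, adjusted p = 1.2e-04). Casr was at -0.03 within Set 2 alone (adjusted p = 0.748).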

How the data were processed

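Gene counts deposited by the authors for 65 original and 4 repeat libraries were used, and the repeats entered only the run term. Per the study's methods, oligo-dT selected mRNA was sequenced and reads with a single position and at most 2 mismatches were assigned to exons of mm10. The submitters' processing notes name HISAT. Genes reaching 100 counts summed over the libraries fitted were tested with edgeR 4.0.16 (TMM factors, quasi-likelihood F test, R 4.3.3), with time point and set as covariates and Benjamini-Hochberg adjustment over all genes, at 0.05. The script was tested on simulated data. CPM use TMM library sizes, log2 CPM a prior count of 2, and CPM per kb the exon union (GENCODE M21, GRCm38). All members are described. Of the 2 further gene lists the 5 largest called differences are named, apart from 1 that is not reported here, and for likeness the 3 highest r. The members, lists and alternatives were chosen with earlier results of these data known. The fits without liver signal, within Set 1, without Set 1 mice, without adrenal signal in remission comparisons, leaving out mice per time point, Set 2 alone per time point, and likeness without liver or adrenal signal were added after seeing the data. Each original library is 1 mouse, so p-values measure the spread between mice. Fits with the run term also held the 4 repeat libraries, which are not independent of the originals of the same mice. DESeq2 1.42.0 and limma 3.58.1 were alternatives.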

Additional observations from a re-analysis of the deposited data

Results flagged for a closer look

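Of 84 sets of 4 to 7 mice of 1 group and time point, 9 held a mouse whose gap to the next was above the 95% critical value of Dixon's ratio, and chance alone flags about 1 in 20. That rate does not hold for Agtr1b where all other mice of the set are at 0, since any count then passes. In young mice of ZT8, Agt was 118 CPM in replicate 11 (others 34.2 to 44), the kidney with the highest Alb. In the same time point Agtr1b was 0.0814 CPM in replicate 12 (others 0), Enpep was 238 CPM in replicate 12 (others 178 to 182), and Mme was 193 CPM in replicate 10 (others 205 to 206). In young mice of ZT20, Enpep was 218 CPM in replicate 23 (others 169 to 173). In nephritic mice, Agtr1b was 1.69 CPM in replicate 6 of ZT0 (others 0 to 0.0954), the kidney with both adrenal and liver signal, and 0.104 CPM in replicate 11 of ZT4 (others 0). Nephritic replicate 16 of ZT8 was low in Mme, at 128 CPM (others 190 to 197), and in Atp6ap2, at 122 CPM (others 139 to 141).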

How the results depend on the processing

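No pairing of mice between groups was possible because replicate numbers follow accession order and mark no shared animal or day. Only the 4 repeat libraries share a mouse with another library, and these pairs were used for the ratios of repeat to original. The 5 lower members of nephritic mice were called by every other setting tried, apart from Atp6ap2 in Set 2 alone. The number of members varying with time in young mice (5) was 3 by limma, 1 in Set 2 alone, 1 in the joint fit of both groups, 3 without adrenal, 3 without liver and 3 without either signal, and 3 to 5 leaving out 1 mouse. In nephritic mice (1) it was 3 in Set 2 alone, 2 in the joint fit, 3 without adrenal, 4 without liver and 4 without either signal, and 1 to 3 leaving out 1 mouse. Members differing between remission and nephritic mice (1) were 3 without the set term, 0 without remission replicate 8, 0 without adrenal and 2 without liver signal, and 0 to 1 leaving out 1 mouse. Against young mice (5) they were 0 with a run term, 3 without adrenal signal, and 3 to 5 leaving out 1 mouse. At ZT12 (6) and ZT16 (2) the ranges were 3 to 6 and 0 to 2, and Set 2 alone gave 2 at ZT0 (5), 1 at ZT12, 4 at ZT16 and 1 at ZT20 (0), with 966 of all genes at ZT8 and 5080 at ZT12 (8757). Members related to injury (5) were 2 in Set 2 alone, and the median amplitude in young mice (0.13) was 0.21 there. Over all genes, the count varying with time in young mice (6583) was 3921 without adrenal, 3931 without liver and 2860 without either signal and 3721 in the joint fit. In nephritic mice (3646) it was 5646 by DESeq2, 362 by a cosine, 1994 without the set term, and 7163 and 7403 without liver and without either signal. Time courses differing between groups (1099) were 121 by a cosine, 1715 in Set 2 and 518 without liver signal. Remission against young (8260) gave 2342 with a run term, and ZT12 against ZT0 in remission (0) 24 by DESeq2 and 202 without replicate 8. Leaving out 1 mouse gave 155 to 738 at ZT8 (641), 1591 to 2779 at ZT16 (3104) and 387 to 1142 at ZT20 (960). The cause was not tested. Low counts limit Ren1 and Agtr1b.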
